A study of Mus musculus with 54 samples.

Results

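The genes described here are 8 members of the interleukin-1 (IL-1) system of mouse macrophages, taken by their symbols from the 39179 genes of the count files: the ligands Il1a, Il1b and Il18, the antagonists Il1rn and Il18bp, the decoy receptor Il1r2, and the receptor subunits Il1r1 and Il1rap. They were followed over 15 conditions in 2 RNA sequencing experiments on thioglycolate-elicited peritoneal macrophages of C57BL/6 mice, aged 8 to 20 weeks, which were collected 4 days after the injection and selected by adherence to the culture plate. In the polarization experiment, cells of 3 mice were left without cytokine (M0), polarized with IFN-γ at 50 ng/ml together with LPS at 100 ng/ml (M1-like) or polarized with IL-4 at 10 ng/ml (M2-like), all for 24 h, and each mouse and condition was sequenced as 2 technical replicates of 50-base single reads. In the reprogramming experiment, which was sequenced as paired reads of 150 bases, M0, M1-like and M2-like macrophages were left untransfected, the same 3 states were given transfection reagent alone (mock), and M2-like macrophages were transfected with a negative siRNA pool, with siRNAs against E2f1, Myc, Pparg or Stat6, or with all 4 together, which gave the induced M1-like (iM1) macrophages. Each of these 12 conditions had 3 replicates. Transfected cultures were taken 48 h after transfection, without IL-4 from the transfection on, and the methods put the sequencing of macrophages without transfection at 24 h of polarization, without saying whether this covers the untransfected cultures of this experiment. The siRNAs against Myc came from another supplier than the pools against E2f1, Pparg and Stat6.

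IL-1α and IL-1β, the products of Il1a and Il1b, bind the receptor subunit IL1R1, which then recruits the accessory protein IL1RAP and signals through MyD88, IRAK kinases and NF-κB. The product of Il1rn occupies the same receptor without signalling, and IL1R2 binds the ligands without a signalling domain, while IL-18 is held back by the secreted IL18BP. In macrophages, LPS is a classical inducer of the IL-1 genes, IFN-γ a classical inducer of Il18bp, and IL-1β and IL-18 are made as precursors that are cleaved by caspase-1 in inflammasomes.

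Libraries of the polarization experiment held 19714994 to 29880494 counted reads and those of the reprogramming experiment 13421854 to 19704195. Technical replicates from one mouse and state differed by little more than counting noise (chi-square per gene between 1.07 and 1.10, against 5.86 to 96.6 between mice) and were summed. Levels are given as reads per 1000000 counted reads (CPM) with TMM-normalised library sizes, and every condition had n = 3. The siRNA targets fell in their own knockdowns, to 25.2% ± 4.05 (SD) of the mean of the negative pool for E2f1, 38.01% ± 8.01 for Myc, 21.9% ± 2.58 for Pparg and 27.3% ± 5.79 for Stat6, and in iM1 macrophages to between 28.3% for Pparg and 60.4% for E2f1. Markers of macrophages were high throughout (8 of 8 detected in every condition), with the lowest sums in M1-like macrophages of the reprogramming experiment (6448 to 8096 CPM, against 11705 to 18409 in its other conditions). In bulk samples such as these, fewer cells of a type and less RNA per cell cannot be told apart. The methods call the replicates of iM1 macrophages and of the M0, M1-like and M2-like states biological. The labels of the reprogramming experiment give its replicates numbers and no mouse or culture, so that p-values there measure the spread between these samples, and for its other conditions nothing in the sources used here says whether this spread is biological or technical.

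Of the 8 genes, 7 passed the filter on low counts in both experiments and were tested. Il1r2 did not pass in either. Il1b passed in the reprogramming experiment through M1-like libraries, which were its 3 highest, so that a difference of these from the others was set by the filter in part. Il1a (ENSMUSG00000027399) and Il1b (ENSMUSG00000027398) lie near each other on the minus strand of chromosome 2 (GRCm38/mm10, chr2:129299610-129309972 and chr2:129364570-129371139), and Il1rn (ENSMUSG00000026981) on the plus strand at chr2:24336853-24351494. Il18 (ENSMUSG00000039217) is at chr9:50554827-50581840, Il18bp (ENSMUSG00000070427) at chr7:102014885-102018690, Il1r1 (ENSMUSG00000026072) at chr1:40225080-40317257, Il1r2 (ENSMUSG00000026073) at chr1:40074079-40125231 and Il1rap (ENSMUSG00000022514) at chr16:26581704-26730117. Exons of 4 of them overlap a gene on the opposite strand, Il1a over 222 bases of Gm14023, Il1b over 25 bases of Il1bos, Il18bp over 80 bases of Numa1 and Il1rap over 552 bases of Gm20319. The strand setting of the counting is not given in the sources used here, so that reads of such stretches cannot be told apart. Gm14023, Il1bos and Gm20319 stayed at or below 1.68 CPM in every library, and Numa1 was between 104.9 and 182.3 CPM.

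The sequences before the transcription starts of Il1a, Il1b and Il1rn are printed because both IL-1 ligands and the antagonist of their receptor were higher in M1-like than in M0 macrophages. They are from RefSeq (GRCm38.p6), run 5′ to 3′ up to the start, and leave out bases in annotated exons. Capitals mark matches to 8 short motifs, which were searched on both strands.
Il1a (chr2:129309973-129310222, minus strand): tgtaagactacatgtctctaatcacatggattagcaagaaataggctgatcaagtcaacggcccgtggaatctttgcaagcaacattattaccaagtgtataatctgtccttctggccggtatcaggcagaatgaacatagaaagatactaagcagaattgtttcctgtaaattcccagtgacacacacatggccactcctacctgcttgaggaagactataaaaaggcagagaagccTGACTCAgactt
Il1b (chr2:129371140-129371389, minus strand): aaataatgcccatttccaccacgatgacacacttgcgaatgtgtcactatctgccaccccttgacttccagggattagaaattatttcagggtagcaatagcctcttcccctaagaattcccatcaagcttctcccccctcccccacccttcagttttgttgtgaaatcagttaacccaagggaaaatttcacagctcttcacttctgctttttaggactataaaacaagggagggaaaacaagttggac
Il1rn, start at the 5′ end of the gene (chr2:24336610-24336852, plus strand): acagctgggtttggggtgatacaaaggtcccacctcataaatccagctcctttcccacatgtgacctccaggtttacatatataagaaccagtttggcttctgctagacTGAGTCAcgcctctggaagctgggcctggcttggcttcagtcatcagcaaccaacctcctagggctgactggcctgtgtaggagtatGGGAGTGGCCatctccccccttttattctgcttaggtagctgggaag
Il1rn, internal start (chr2:24345041-24345287, plus strand): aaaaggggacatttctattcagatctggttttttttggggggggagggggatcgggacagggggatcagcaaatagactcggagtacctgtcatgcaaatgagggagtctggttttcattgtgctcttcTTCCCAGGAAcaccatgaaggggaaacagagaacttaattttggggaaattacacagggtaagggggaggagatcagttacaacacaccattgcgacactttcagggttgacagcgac
The motifs were GGGA and CC around 4 free bases (NF-κB), GAAA and GAAA around 2 free bases (core of the interferon-stimulated response element), TTC and GAA around 4 free bases (STAT6-type), TGANTCA (AP-1), TTGCNNAA (C/EBP), GAGGAAGT (PU.1), CACGTG (E-box) and TTTNNCGC (E2F). Il1a held an AP-1 match that began 12 bases before its start. Il1b held none of the 8 in these 250 bases. Upstream of the first Il1rn start were an NF-κB match at 54 bases and an AP-1 match at 141 bases, and upstream of the internal start a STAT6-type match at 121 bases. Of the genes not printed, Il18 held a STAT6-type match at 46 bases, Il1r1 a C/EBP match at 133 bases and Il1rap an NF-κB match at 119 bases, while Il1r2 held 2 E-box matches, at 195 and 238 bases. Another Il1rn start, whose window shares the STAT6-type match of the internal start, had an E2F match at 47 bases, which lies within an annotated Il1rn exon. Of 32851 mouse promoter windows of 250 bases, 17.6% held the NF-κB motif, 6.75% the AP-1 motif, 5.85% the STAT6-type motif, 9.56% the C/EBP motif, 6.02% the E-box and 4.28% the E2F motif. The region before the Il18bp start lies within an annotated Il18bp exon and is not printed, and its match was C/EBP at 49 bases. A match is a description of letters, and no binding was measured.

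The first question was how the members differ between the polarized states at 24 h. Relative to M0, M1-like macrophages had higher levels of all ligands and of both soluble antagonists that were tested, and lower levels of the signalling receptor subunits, 5 genes higher and 2 lower of 7. Of all 16110 genes tested, 72.9% were called in this comparison, 35.4% higher and 37.5% lower, so that being called does not set these genes apart. Their median log2 fold change was 4.85, against -0.04 over all genes tested.

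Il1b was near the detection limit in M0 macrophages, at 0.420, 0.168 and 0.147 CPM, and stood at 157.5, 109.2 and 137.8 CPM in M1-like macrophages of the same mice. Il1a had a higher start, with 10.3, 11.1 and 11.9 CPM in M0, and reached 321.0, 286.4 and 353.5 CPM. No M1-like library overlapped an M0 library for either ligand. Here and below, a lack of overlap is no separate support where the genes were already called. The share of all genes without overlap was not counted in any comparison. The log2 fold changes were 9.11 ± 0.26 (SE, adjusted p = 1.83e-11) for Il1b and 4.85 ± 0.11 (adjusted p = 3.49e-12) for Il1a. Per kilobase of exon, Il1b made up 28.3% to 33.7% of the sum of both IL-1 ligands in M1-like macrophages and 1.26% to 4.06% in M0 macrophages, so the greater part of the ligand transcripts was Il1a in both states. Il18, the ligand of the IL-18 receptor, moved least of the ligands, from 2.86, 3.86 and 3.49 CPM in M0 to 8.62, 10.4 and 11.1 CPM in M1-like macrophages (log2 fold change 1.56 ± 0.14, adjusted p = 6.32e-07).

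The antagonist Il1rn rose from 35.4, 35.1 and 37.0 CPM in M0 to 2570, 1975 and 2389 CPM in M1-like macrophages, the highest level of any member in any condition in CPM (log2 fold change 6.01 ± 0.11, adjusted p = 6.31e-13). It was also the highest per kilobase of exon in these cells, at 417.6 CPM per kb, against 183 for Il18bp, 162.3 for Il1a and 70.7 for Il1b. Il18bp, the inhibitor of IL-18, went from 3.06, 3.15 and 3.53 CPM to 530.9, 530.2 and 596.9 CPM (log2 fold change 7.41 ± 0.14, adjusted p = 7.12e-13). In both antagonists the lowest M1-like library was more than an order of magnitude above the highest M0 library.

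The signalling receptor Il1r1 was low at 24 h, with 2.14, 3.13 and 1.58 CPM in M0, and fell to 0.459, 0.639 and 0.583 CPM in M1-like macrophages (log2 fold change -2.02 ± 0.26, adjusted p = 1.91e-05). Its partner Il1rap went from 12.6, 13.1 and 12.7 CPM to 4.35, 4.21 and 4.27 CPM (log2 fold change -1.58 ± 0.09, adjusted p = 8.31e-09). M1-like libraries lay below all M0 libraries for both. Markers of fibroblasts and mesothelium moved with Il1r1 here, with a summed level of 21.2 to 34.8 CPM in M0 and 9.46 to 12.8 CPM in M1-like macrophages (5 of 8 markers tested, 4 lower and 1 higher, Upk3b at 0 in the M1-like libraries), and their part in the fall of Il1r1 was not tested.

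M2-like macrophages differed from M0 much less at 24 h. Among the members 4 rose and 2 fell, where 27.9% of all genes were called (13.5% higher and 14.4% lower), and the median log2 fold change of the 7 was 0.42 against 0.00 over all genes. The receptor genes rose, Il1r1 to 5.37, 4.51 and 4.66 CPM (log2 fold change 1.08 ± 0.20, adjusted p = 0.00227) and Il1rap to 19.6, 16.6 and 16.5 CPM (0.46 ± 0.08, adjusted p = 0.00143). The fibroblast and mesothelium markers did not follow, at 16.8 to 22.8 CPM in M2-like against 21.2 to 34.8 CPM in M0 macrophages (none higher and 2 lower of 5 tested). Il1rn fell to 27.8, 25.0 and 24.7 CPM (-0.47 ± 0.09, adjusted p = 0.00304) and Il18 to 2.64, 2.21 and 2.61 CPM (-0.46 ± 0.15, adjusted p = 0.0366). Il18bp rose to 5.65, 4.58 and 6.71 CPM (0.80 ± 0.13, adjusted p = 0.00095) and Il1a to 17.0, 13.9 and 13.6 CPM (0.42 ± 0.10, adjusted p = 0.0120). In each of these 6 genes the M2-like and M0 libraries did not overlap, which is no separate support, since these are the genes already called. The share of all genes without overlap was not counted. The call of Il18 was lost without mouse 2 or mouse 3 of M0 or mouse 2 of M2-like (log2 fold change -0.44 to -0.36, adjusted p 0.0951 to 0.150), and that of Il1a without mouse 1 of M0 (0.37, adjusted p = 0.0535). Il1b stood at 0.394, 0.124 and 0.199 CPM in M2-like macrophages and overlapped M0 (log2 fold change -0.09, 95% interval -1.17 to 0.997). Between M1-like and M2-like macrophages themselves 7 of 7 members were called, with 72.6% of all genes. The log2 fold changes were 4.43 ± 0.11 for Il1a, 9.20 ± 0.26 for Il1b, 2.02 ± 0.14 for Il18, 6.48 ± 0.11 for Il1rn, 6.61 ± 0.13 for Il18bp, -3.10 ± 0.25 for Il1r1 and -2.04 ± 0.09 for Il1rap.

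**Figure D1:**
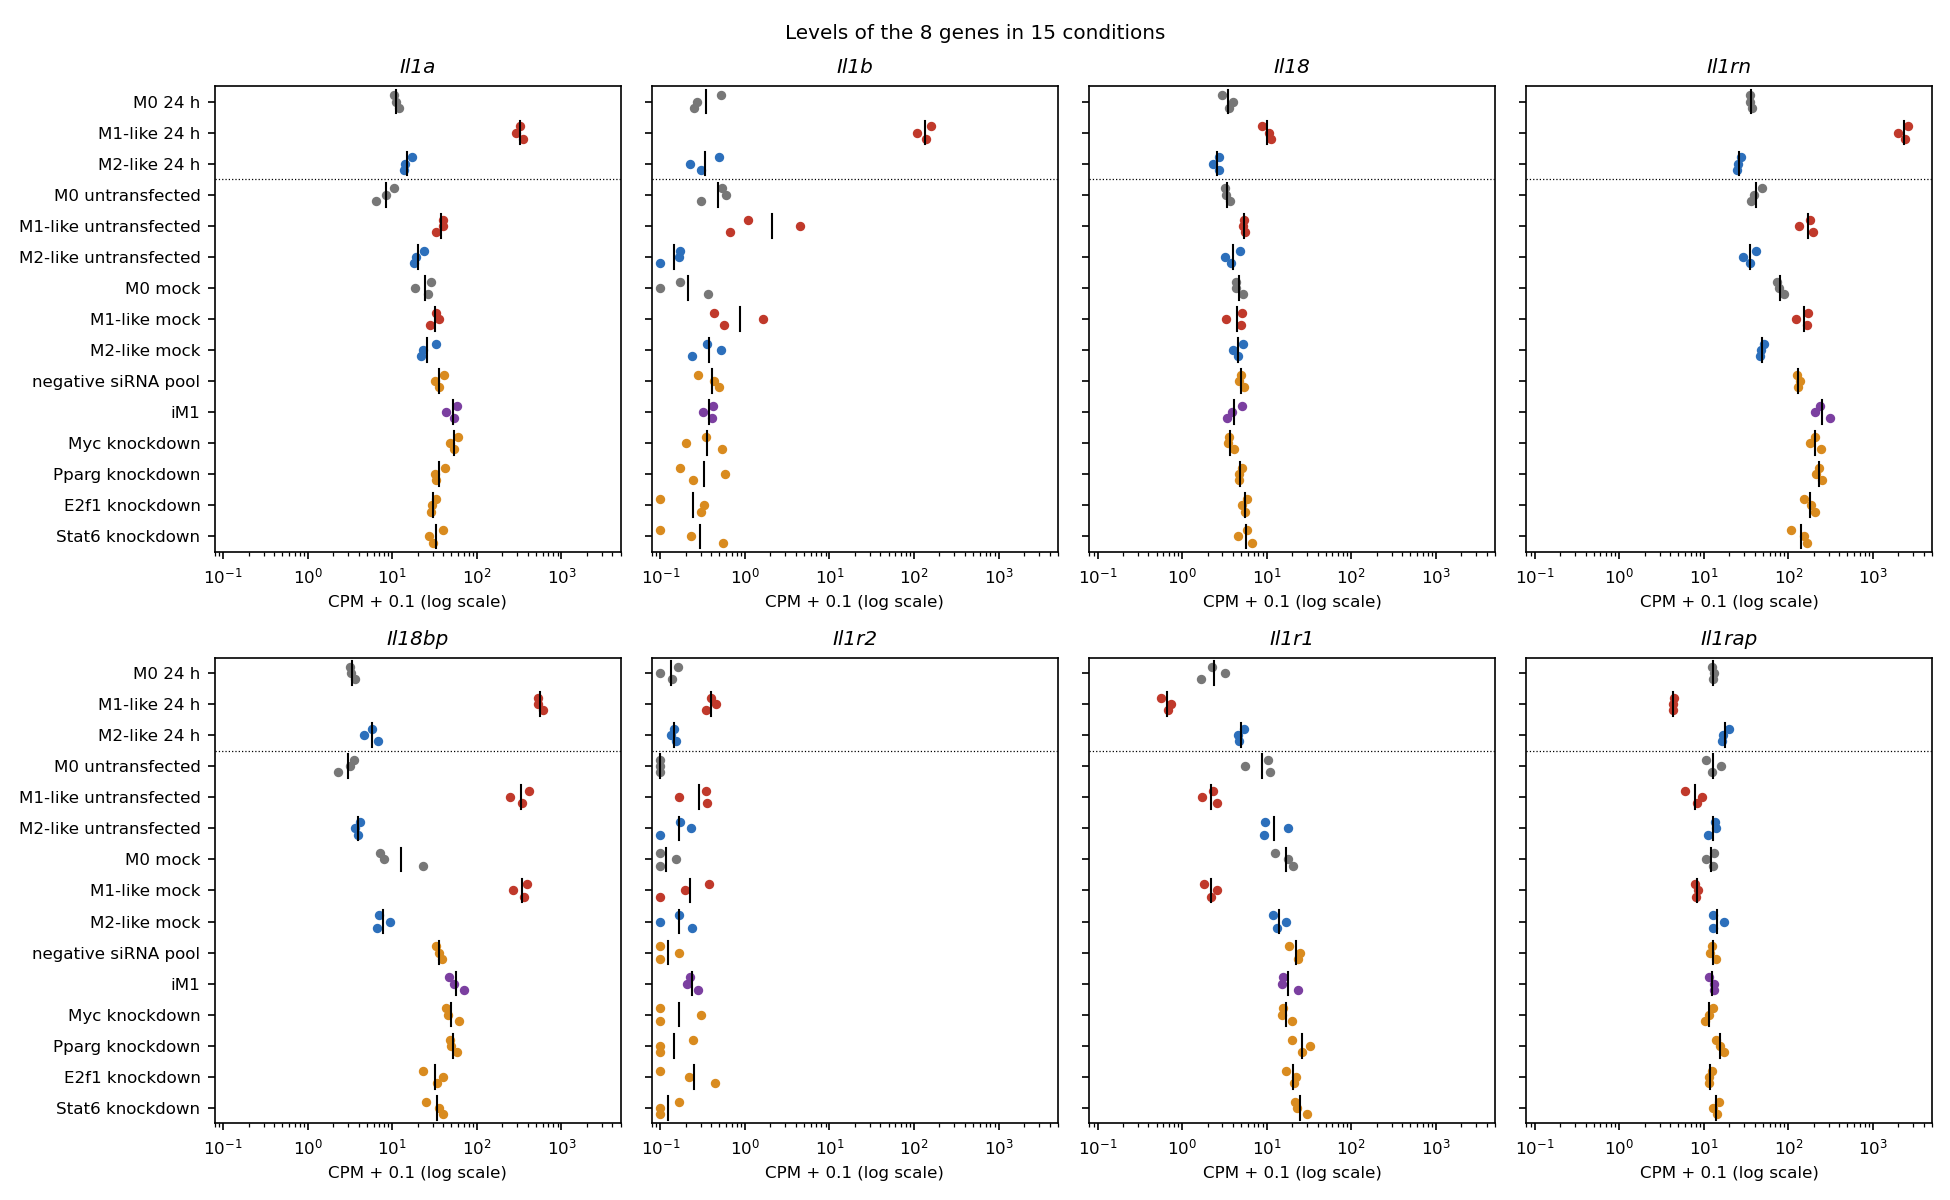
Level of each gene in each library (points, CPM plus 0.1 on a log scale) and the mean of each condition (bar), with the 24 h polarization experiment above the dotted line and the reprogramming experiment below it. M1-like macrophages at 24 h stand apart for Il1a, Il1b, Il1rn and Il18bp, and of these only Il18bp kept a comparable level in the M1-like macrophages of the reprogramming experiment (248.0 to 413.7 CPM).

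The next question was whether the same pattern held in the untransfected macrophages of the reprogramming experiment. All 7 tested members were called between M1-like and M0 macrophages, each with the sign it had at 24 h (57.7% of 14172 genes called, median log2 fold change of the 7 genes 2.05 against 0.01 over all). Il1b passed the filter here through M1-like libraries, so that its sign was set in part by the filter and is no separate support. The levels were different. Il1b was at 0.977, 4.42 and 0.568 CPM in M1-like and at 0.439, 0.496 and 0.205 CPM in M0 macrophages, a log2 fold change of 2.34 ± 0.70 (adjusted p = 0.00482), which dropped to 1.0 (adjusted p = 0.251) without M1-like replicate 2. Il1a was at 39.9, 39.6 and 32.6 CPM in M1-like against 10.5, 8.25 and 6.34 CPM in M0 macrophages (2.16 ± 0.19, adjusted p = 3.05e-11). Il1rn was at 180.03, 132.9 and 196.1 CPM against 48.8, 38.7 and 35.7 CPM (2.05 ± 0.17, adjusted p = 6.11e-12). Il18bp, in contrast, was at 413.7, 248.0 and 343.6 CPM against 3.44, 3.04 and 2.18 CPM (6.86 ± 0.34, adjusted p = 1.77e-17), near its fold change at 24 h. Il18 differed by 0.67 ± 0.18 (adjusted p = 0.00186), Il1r1 by -2.06 ± 0.33 (adjusted p = 2.33e-06) and Il1rap by -0.73 ± 0.15 (adjusted p = 0.000124). Beside Il1r1, the fibroblast and mesothelium markers were at 33.4 to 96.2 CPM in M1-like and 129.5 to 252.5 CPM in M0 macrophages. The experiments differ in read type and were normalised separately, so that no test was run between them and the sources of a difference cannot be told apart.

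Against M2-like macrophages, untransfected M1-like macrophages were again called for 7 of 7 genes (61.5% of all genes). Il1b had 2 reads in the 3 M2-like libraries together and 91 in the M1-like libraries, a ratio of 43.0 with an exact 95% interval from 11.6 to 360.7 that covers counting error only. Its direction was again set in part by the filter. The difference of Il18, 0.47 ± 0.18 (adjusted p = 0.0229), was not called without M1-like replicate 3 or without M2-like replicate 2 or 3 (adjusted p 0.0571 to 0.138). Between M2-like and M0 macrophages Il1a was called, at 23.6, 18.9 and 18.2 CPM in M2-like against 10.5, 8.25 and 6.34 CPM (log2 fold change 1.28 ± 0.20, adjusted p = 2.03e-05), and it was the only member of 7, where 19.9% of all genes were called. Il1rap showed no difference that could be detected (-0.03, 95% interval -0.31 to 0.26).

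**Figure D2:**
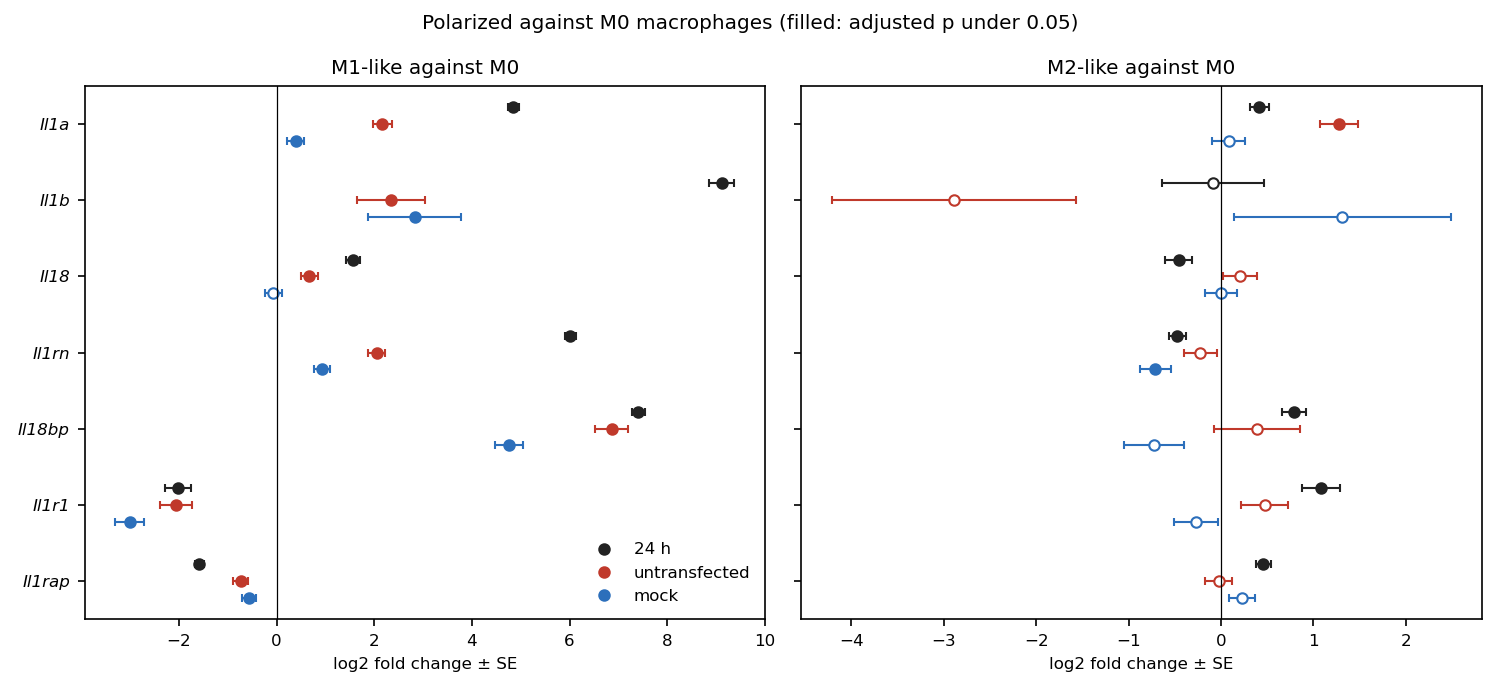
Log2 fold changes with their standard errors of M1-like (left) and M2-like (right) against M0 macrophages in the 24 h experiment (black), the untransfected (red) and the mock-treated (blue) cultures of the reprogramming experiment. Filled points passed an adjusted p of 0.05. In the left panel Il18bp is between 4.77 and 7.41 in all settings and, like Il1a and Il1rn, has its smallest value in the mock cultures.

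Mock cultures were then compared with untransfected cultures within each state. Mock cultures were taken 48 h after transfection, while the time of the untransfected cultures is not certain. An effect of the reagent therefore cannot be told apart from one of longer culture or, in M2-like macrophages, of the removal of IL-4. In M0 macrophages 4 members were higher in mock than in untransfected cultures and none was lower (20.4% of all genes called, 11.7% higher and 8.66% lower). Il1a was at 28.8, 18.6 and 26.1 CPM after mock treatment and at 10.5, 8.25 and 6.34 CPM without it (log2 fold change 1.55 ± 0.20, adjusted p = 4.89e-07). Il1rn was at 73.5, 77.0 and 87.7 CPM against 48.8, 38.7 and 35.7 CPM (0.95 ± 0.17, adjusted p = 9.87e-05). Il18bp was at 7.08, 7.79 and 22.8 CPM against 3.44, 3.04 and 2.18 CPM (2.11 ± 0.38, adjusted p = 0.000121), and replicate 3 stood far above the other two (log2 fold change 1.37 without it). Mock libraries lay above all untransfected ones for these 3 genes and for Il1r1, which is no separate support, since these are the genes already called. Il1r1 rose as well (0.95 ± 0.25, adjusted p = 0.00591; 0.68 with adjusted p = 0.0692 without M0 replicate 2), together with a summed level of the fibroblast and mesothelium markers of 197.0 to 310.8 CPM against 129.5 to 252.5 CPM (none of 7 tested markers called), whose part was not tested.

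Whether the difference of mock from untransfected cultures varied between the states was tested as an interaction, which was added after seeing the data. This difference was larger in M0 than in M1-like macrophages for Il1a (difference of log2 fold changes 1.77 ± 0.26, adjusted p = 1.80e-05), Il1rn (1.11 ± 0.23, adjusted p = 0.00158) and Il18bp (2.09 ± 0.45, adjusted p = 0.00216; 1.35 with adjusted p = 0.0255 without M0 mock replicate 3), 3 of 7 members with 9.07% of all genes called. Against M2-like macrophages it was larger in M0 for Il1a (1.19 ± 0.27, adjusted p = 0.00564), 1 of 7 members with 5.66% of all genes called.

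In M1-like macrophages edgeR called no member and no other gene between mock and untransfected cultures (0% of 14172 genes; 1 member at an unadjusted p under 0.05, and 0 members with DESeq2). In M2-like macrophages it called no member either, where 1.77% of all genes were called (2 members at an unadjusted p under 0.05, 0 with DESeq2). The intervals do leave room for changes: for Il1rn in M2-like macrophages the log2 fold change was 0.46 with a 95% interval from 0.12 to 0.81, and for Il18bp 1.0 with an interval from 0.23 to 1.78. Mock cultures showed accordingly smaller contrasts between the states for some genes. For M1-like against M0, Il1a was at 32.7, 35.8 and 27.6 CPM against 28.8, 18.6 and 26.1 CPM with overlap of the groups (0.40 ± 0.17, adjusted p = 0.0481), and the call was lost without M0 mock replicate 2 or 3 or M1-like mock replicate 1 or 2 (0.22 to 0.45, adjusted p 0.0523 to 0.305) and with DESeq2 (adjusted p = 0.0655). Il1rn differed by 0.94 ± 0.16 (adjusted p = 1.15e-05), Il18bp by 4.77 ± 0.29 (adjusted p = 2.15e-15), Il1r1 by -3.00 ± 0.29 (adjusted p = 2.34e-10) and Il1rap by -0.57 ± 0.15 (adjusted p = 0.00149). With Il1b (2.83 ± 0.95, adjusted p = 0.0113; 1.84 to 2.17 with adjusted p 0.0679 to 0.156 without M0 mock replicate 2 or M1-like mock replicate 2) these were 6 called members of 7, against 60.4% of all genes. The direction of Il1b was set in part by the filter here too.

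Between mock-treated M1-like and M2-like macrophages 4 of 7 members were called (60.7% of all genes), Il1rn at 169.1, 122.9 and 164.0 against 51.6, 47.96 and 45.8 CPM (log2 fold change 1.65 ± 0.17), Il18bp at 390.4, 268.2 and 362.6 against 6.91, 9.39 and 6.41 CPM (5.49 ± 0.31), Il1r1 (-2.73 ± 0.30) and Il1rap (-0.80 ± 0.15), with adjusted p of 2.57e-05 or less. Il1a differed by 0.31 ± 0.17 (adjusted p = 0.119; 0.52 with adjusted p = 0.0174 without M2-like mock replicate 1). The M1-like against M2-like difference itself was compared between mock and untransfected cultures as an interaction, and edgeR called none of 7 members (1.13% of all genes called; 5 members at an unadjusted p under 0.05, 0 called with DESeq2). The estimates were negative for all 7, from -3.72 ± 1.52 for Il1b to -0.09 ± 0.21 for Il1rap. For Il1r1 and Il1rap, which were lower in M1-like macrophages, a negative estimate means a larger contrast in mock cultures. Their log2 fold changes were -2.73 with mock against -2.53 untransfected for Il1r1, and -0.80 against -0.71 for Il1rap. Mock-treated M2-like macrophages differed from mock-treated M0 macrophages in Il1rn alone (-0.71 ± 0.17, adjusted p = 0.0120, with 3.83% of all genes called), which was not called without M0 mock replicate 3 or M2-like mock replicate 2 (-0.70 to -0.63, adjusted p 0.05003 to 0.0570).

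The knockdowns were designed to move M2-like macrophages towards the M1-like state. Among the IL-1 genes the antagonists and Il1a rose in iM1 macrophages, and the antagonists were higher already with the negative siRNA pool. The siRNAs given to iM1 macrophages included those against Myc, which came from another supplier than the other knockdown pools. The supplier of the negative pool is not given. Where iM1 macrophages differ from the negative pool, effects of the reagent and of the loss of Myc therefore cannot be told apart. Il1rn was at 51.6, 47.96 and 45.8 CPM in mock-treated M2-like macrophages, at 125.9, 137.4 and 131.8 CPM with the negative pool, and at 235.5, 206.7 and 312.7 CPM in iM1 macrophages. Il18bp was at 6.91, 9.39 and 6.41 CPM, at 32.4, 35.4 and 38.8 CPM, and at 46.4, 52.8 and 70.7 CPM in the same order. None of the 3 groups overlapped another for either gene, which is no separate support, since both genes were called in each of these comparisons.

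Negative pool against mock gave a log2 fold change of 1.44 ± 0.17 for Il1rn (adjusted p = 3.59e-07) and 2.23 ± 0.30 for Il18bp (adjusted p = 3.71e-06), and these were the 2 members called of 7 (11.7% of all genes). Il1a was at 40.7, 31.7 and 35.3 CPM with the negative pool and 32.8, 23.1 and 21.5 CPM with mock (0.47 ± 0.17, adjusted p = 0.0719), and without M2-like mock replicate 1 it was called (0.69, adjusted p = 0.0167). Il1r1 differed by 0.66 ± 0.23 (adjusted p = 0.0644), and by 0.82 without M2-like mock replicate 2 (adjusted p = 0.0441). The marker sum of fibroblasts and mesothelium was 282.0 to 406.9 CPM with the negative pool and 178.4 to 290.1 CPM with mock.

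iM1 macrophages against mock-treated M2-like macrophages differed in 3 of 7 members, Il1a, Il1rn and Il18bp, all higher (1.0 ± 0.17, 2.38 ± 0.17 and 2.90 ± 0.30, with adjusted p of 1.94e-05 or less, and 37.1% of all genes called). Against the negative pool the same 3 genes were higher (26.5% of all genes called, 12.5% higher and 13.9% lower), with 0.93 ± 0.16 for Il1rn (adjusted p = 5.30e-05), 0.53 ± 0.17 for Il1a (adjusted p = 0.0180) and 0.67 ± 0.25 for Il18bp (adjusted p = 0.0453). Il1a was at 58.2, 43.6 and 53.6 CPM in iM1 macrophages, above every library of the negative pool. Il1rn was called without any single library (0.75 to 1.06). Il1a was not called without iM1 replicate 1 or 3 or negative pool replicate 2 or 3 (0.43 to 0.51, adjusted p 0.0538 to 0.0942). Il18bp was called in 1 of 6 such fits, and was not without iM1 replicate 2 or 3 or any one of the 3 replicates of the negative pool (0.48 to 0.74, adjusted p 0.0639 to 0.221), nor with DESeq2 (adjusted p = 0.101). Il1b stayed at 0.318, 0.217 and 0.304 CPM in iM1 macrophages against 0.181, 0.334 and 0.400 CPM with the negative pool (-0.13, 95% interval -1.95 to 1.68), so a change of this gene could not be detected at this depth. Il1rap did not differ detectably (-0.01, 95% interval -0.30 to 0.27), nor did Il1r1 (-0.31, -0.75 to 0.14) or Il18 (-0.30, -0.64 to 0.05).

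Il1a and Il1rn were higher after Myc knockdown than with the negative pool. The siRNAs against Myc came from another supplier than the other knockdown pools, and the supplier of the negative pool is not given. Effects of the reagent and of the loss of Myc therefore cannot be told apart, in iM1 macrophages (which received these siRNAs) or after Myc knockdown. Il1a was at 60.1, 47.999 and 52.9 CPM (log2 fold change against the negative pool 0.58 ± 0.17, adjusted p = 0.00810) and Il1rn at 207.4, 179.2 and 240.6 CPM (0.67 ± 0.16, adjusted p = 0.00203). Il18 fell from 4.81, 4.602 and 5.32 CPM to 3.503, 3.36 and 3.97 CPM (-0.45 ± 0.17, adjusted p = 0.0499), a call that was lost without any 1 of the 6 libraries (Myc knockdown replicates 1 to 3 and negative pool replicates 1 to 3, -0.52 to -0.39, adjusted p 0.0565 to 0.165) and with DESeq2 (adjusted p = 0.0610). With these, 3 of 7 members were called for Myc against 29.6% of all genes. Between iM1 macrophages and the Myc knockdown edgeR called none of 7 members (0.0494% of all genes, no member at an unadjusted p under 0.05, 0 with DESeq2), and the interval of the difference was -0.37 to 0.27 for Il1a, -0.04 to 0.58 for Il1rn and -0.30 to 0.67 for Il18bp.

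After Pparg knockdown Il1rn was higher than with the negative pool, at 229.2, 214.2 and 246.9 CPM (0.80 ± 0.16, adjusted p = 0.00167). It was the only member called, with 5.74% of all genes. The 10 neutrophil markers summed to 175.2 to 197.6 CPM after this knockdown and to 121.9 to 137.0 CPM with the negative pool (1 of 5 tested markers higher, Mmp8, with S100a9, Ly6g and Retnlg at 0 in both), and their part in the Il1rn level was not tested. Il1a was at 42.3, 32.2 and 32.5 CPM there, within the range of the negative pool apart from its highest library (-0.01 ± 0.17), and iM1 macrophages had more Il1a than this knockdown (0.54 ± 0.17, adjusted p = 0.0226, with 18% of all genes called; 0.45 to 0.51 with adjusted p 0.0704 to 0.106 without iM1 replicate 1 or 3 or Pparg knockdown replicate 2 or 3). For E2f1 and Stat6 edgeR called no member (0.91% and 1.51% of all genes; 1 and 0 members at an unadjusted p under 0.05, 0 and 0 with DESeq2). Il1rn was at 153.6, 186.2 and 204.6 CPM after E2f1 knockdown, above all libraries of the negative pool (0.46 ± 0.16, adjusted p = 0.220). After Stat6 knockdown it was at 106.3, 151.6 and 166.0 CPM (0.10 ± 0.16), on both sides of the negative pool.

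iM1 macrophages exceeded the E2f1 knockdown in Il1a (0.79 ± 0.17, adjusted p = 0.000818), Il1rn (0.47 ± 0.16, adjusted p = 0.0324) and Il18bp (0.81 ± 0.25, adjusted p = 0.0199), with 21.6% of all genes called. Of these, Il1rn was lost without iM1 replicate 3 or E2f1 knockdown replicate 1 or 2 (0.28 to 0.49, adjusted p 0.0641 to 0.271) and Il18bp without iM1 replicate 3 or E2f1 knockdown replicate 1 (0.62, adjusted p 0.128 to 0.133). Over the Stat6 knockdown they were higher in the same 3 genes (0.68 ± 0.17, 0.83 ± 0.16 and 0.76 ± 0.25, adjusted p 0.00342, 0.000295 and 0.0282) and lower in Il18 (-0.48 ± 0.17, adjusted p = 0.0418, groups overlapping), with 22.2% of all genes called. There the call of Il18 was lost without iM1 replicate 2 or 3 or Stat6 knockdown replicate 1 or 3 (adjusted p 0.101 to 0.213) and that of Il18bp without iM1 replicate 3 or Stat6 knockdown replicate 1 or 2 (adjusted p 0.0525 to 0.160). All these comparisons share the iM1 libraries, and those of the knockdowns share the negative pool.

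**Figure D3:**
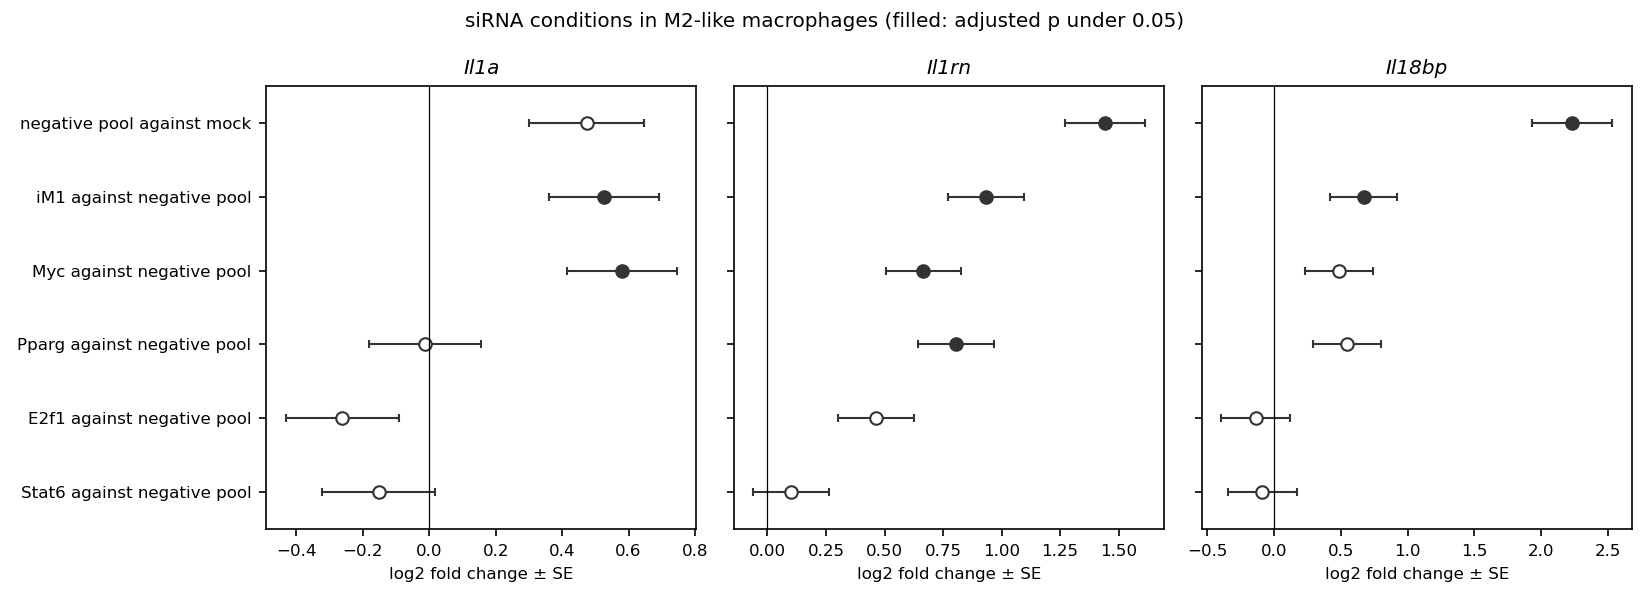
Log2 fold changes with standard errors of Il1a, Il1rn and Il18bp for the negative siRNA pool against mock and for each siRNA condition against the negative pool, each panel with its own scale. Filled points passed an adjusted p of 0.05, and for Il1rn and Il18bp the step from mock to the negative pool (1.44 and 2.23) was larger than that from the negative pool to iM1 (0.93 and 0.67).

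Compared with mock-treated M1-like macrophages, iM1 macrophages reached or passed the level of some members and not of others (5 of 7 called, 52.9% of all genes). Il1a (log2 fold change 0.69 ± 0.17, adjusted p = 0.000802) and Il1rn (0.73 ± 0.16, adjusted p = 0.000309) were higher in iM1 macrophages, with no overlap of the libraries. Il18bp was lower, at 46.4 to 70.7 CPM against 268.2 to 390.4 CPM (-2.59 ± 0.25, adjusted p = 2.63e-10). Receptor genes were higher, Il1r1 at 15.5, 15.05 and 23.1 against 1.74, 2.46 and 2.09 CPM (3.08 ± 0.29, adjusted p = 2.02e-10) and Il1rap at 11.5 to 13.2 against 7.83 to 8.49 CPM (0.63 ± 0.15, adjusted p = 0.000628). Beside Il1r1, the fibroblast and mesothelium markers were at 247.7 to 406.5 CPM in iM1 and 22.2 to 44.0 CPM in M1-like mock macrophages. Means with the negative pool were already above those of M1-like mock macrophages for Il1r1 (22.1 against 2.09 CPM), Il1rap (12.7 against 8.13 CPM) and Il1a (35.9 against 32.0 CPM). For Il1rn (131.7 against 152.0 CPM) and Il18bp (35.5 against 340.4 CPM) they were below.

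Antagonist and ligand transcripts were also set against each other within each library, as reads per kilobase of exon (union of annotated exons, whose length scales each ratio). No test was run on these ratios, since 3 against 3 libraries cannot reach an exact two-sided permutation p below 0.10. Il1rn to the sum of Il1a and Il1b was 1.18, 1.11 and 1.09 in M0, 1.89, 1.76 and 1.72 in M1-like and 0.569, 0.635 and 0.638 in M2-like macrophages at 24 h, with no overlap between the states. M2-like macrophages without siRNA had ratios below 1 in the reprogramming experiment too, 0.621, 0.547 and 0.693 untransfected and 0.556, 0.726 and 0.756 with mock. With the negative pool it was 1.10 to 1.53, in iM1 macrophages 1.43 to 2.07, and after Pparg knockdown 1.93 to 2.70, the highest of the 15 conditions by its median. E2f1 knockdown overlapped the Pparg knockdown, at 1.68 to 2.56 (median 2.26 against 2.33), and Myc knockdown was at 1.22 to 1.61. Stat6 knockdown spread from 0.946 to 2.002. Every siRNA condition was above all M2-like mock libraries.

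The ratio of Il18bp to Il18 had a wider span. It was 17.3 to 21.0 in M1-like macrophages at 24 h, 16.2 to 26.8 in untransfected and 25.3 to 28.6 in mock-treated M1-like macrophages. In M0 and M2-like macrophages without siRNA it was below 1 in every library but replicate 3 of M0 mock, at 1.49. The negative pool gave 2.29 to 2.62, iM1 macrophages 3.19 to 7.34 and the Myc knockdown 4.18 to 5.30.

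**Figure D4:**
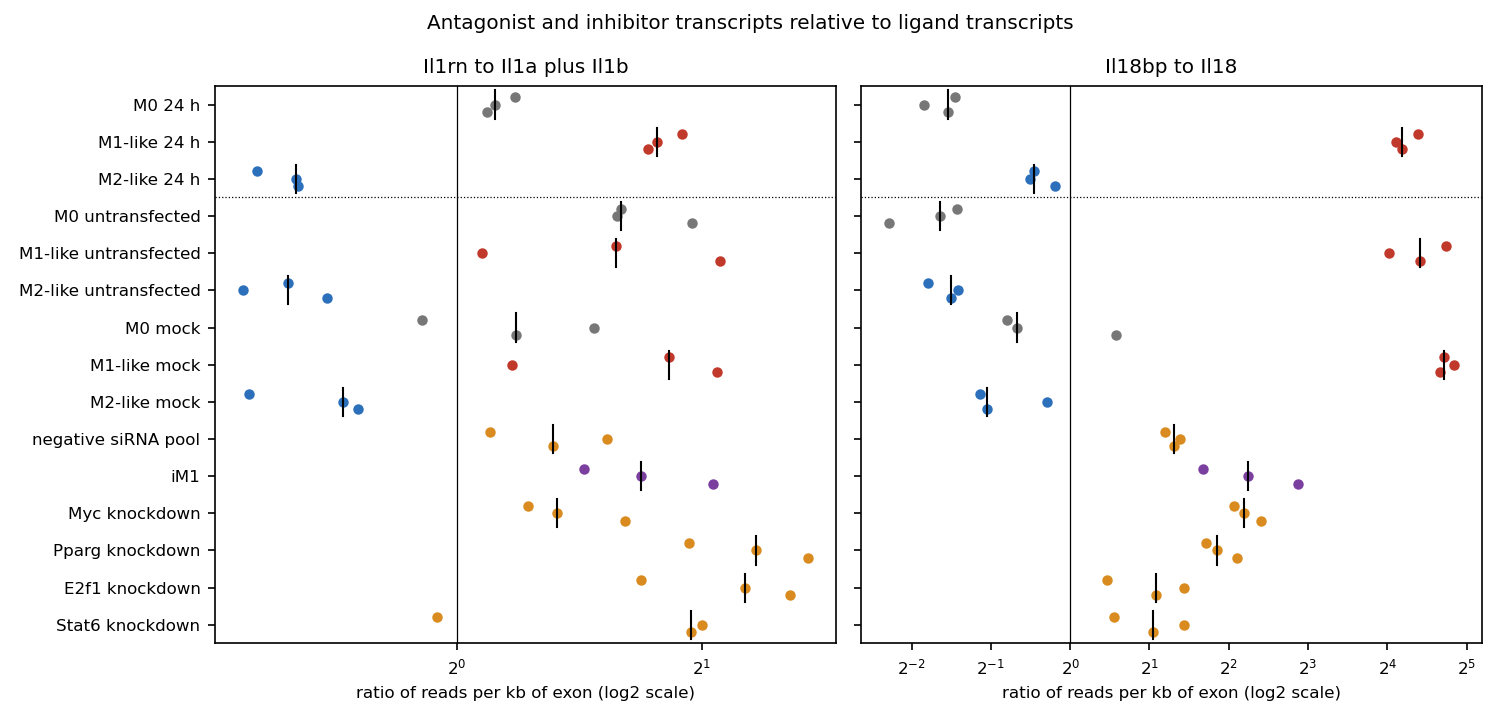
Ratios of antagonist to ligand reads per kilobase of exon in each library (points, log2 scale) with the median of each condition (bar). On the left all M2-like libraries without siRNA lie below 1 and all iM1 libraries above it (1.43 to 2.07), and on the right the M1-like libraries (16.2 to 28.6) lie above all others.

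Il1r1 is also a gene of fibroblasts and mesothelial cells, whose markers were detected in these cultures. In the reprogramming experiment it ranged from 1.61 to 2.46 CPM in the 6 M1-like libraries and from 5.40 to 32.7 CPM in the other 30, and the summed level of 8 fibroblast and mesothelium markers (Col1a1, Col1a2, Col3a1, Dcn, Pdgfra, Msln, Upk3b and Krt19) from 22.2 to 96.2 CPM and from 116.3 to 459.1 CPM. Within conditions the libraries moved together. Untransfected M2-like replicate 2 had the highest Il1r1 of its group (17.7 against 9.59 and 9.13 CPM) and the highest markers (397.6 against 116.3 and 198.4 CPM), and untransfected M0 replicate 2 the lowest of both (5.40 against 10.2 and 10.9 CPM, and 129.5 against 252.5 and 233.9 CPM). Over 36 libraries the deviations from the condition means of both, on the log2 scale, had a Pearson r of 0.86, where the points share their library and its scaling. The same r ranged from -0.43 for Il1a to 0.30 for Il18bp among the other members, with -0.29 for Il1rap and 0.19 for Il1rn. Of the markers, Krt19 was at 0 in untransfected M1-like macrophages and none was at 0 in the other conditions of this experiment. The part of these cells in the Il1r1 values was not tested.

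**Figure D5:**
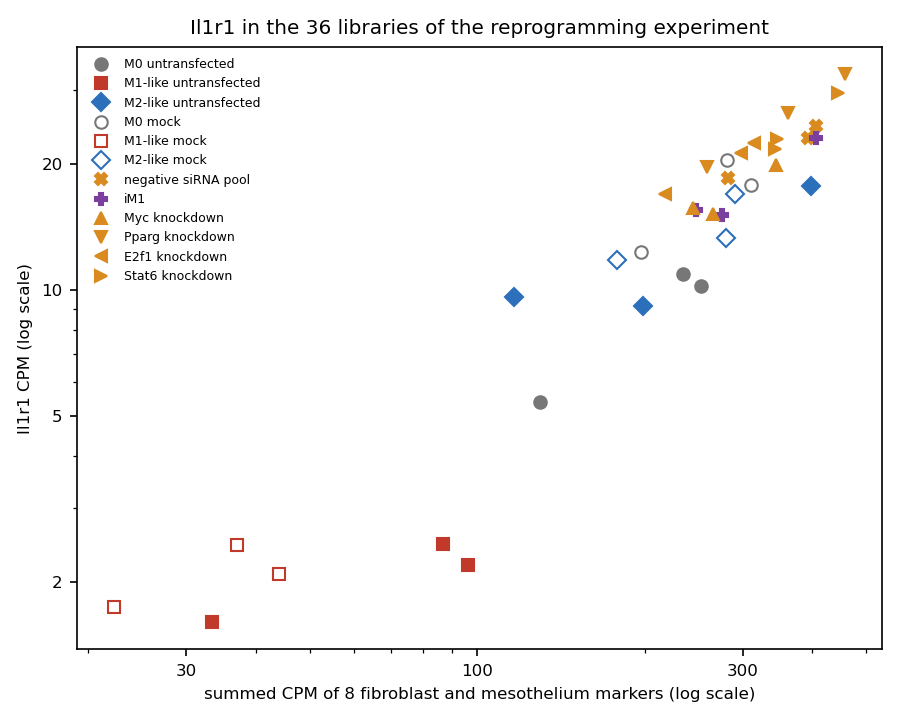
Il1r1 against the summed level of 8 fibroblast and mesothelium markers in the 36 libraries of the reprogramming experiment (both in CPM on log scales), with a symbol for each condition. M1-like libraries are low in both (Il1r1 at or below 2.46 CPM), and the highest Il1r1 value, 32.7 CPM in a Pparg knockdown library, came with the highest marker sum, 459.1 CPM.

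The decoy receptor Il1r2 was hardly detected. It had 49 reads over the 9 mouse samples at 24 h and 45 over the 36 libraries of the reprogramming experiment, 17 of which had none. At 24 h it was at 0.297, 0.358 and 0.250 CPM in M1-like and at most 0.0600 CPM in M0 macrophages, 37 against 5 reads, a ratio of 9.41 with an exact 95% interval from 3.69 to 30.7 for counting error only. Untransfected M0 macrophages had 0 reads, which allows up to 0.186 to 0.220 CPM per library (3 reads).

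Neutrophils carry much Il1r2 and Il1b, and their markers were checked for that reason. The 10 neutrophil markers summed to 148.3 to 150.3 CPM in M0 and 150.1 to 177.0 CPM in M1-like macrophages at 24 h, with S100a9 and Ngp at 0 in the latter and Ly6g and Retnlg at 0 in the former (3 markers higher and 3 lower of 6 tested). The 5 dendritic cell markers summed to 4.20 to 8.34 CPM in M0 and 29.0 to 39.9 CPM in M1-like macrophages at 24 h (Zbtb46, Xcr1 and Ccr7 higher, Cd209a lower), and in the reprogramming experiment to at most 5.68 CPM in any library. Their part in the ligand levels was not tested.

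Other genes of the pathway were taken from 3 lists. Of 13 further IL-1 family ligands and receptors, 8 were tested at 24 h, and 4 rose and 3 fell in M1-like against M0 macrophages (median log2 fold change 1.26), where 72.9% of all genes were called. Il36g, an IL-36 ligand, rose from 0.228 ± 0.020 to 13.9 ± 1.60 CPM (SD; log2 fold change 5.92 ± 0.15). Il33, the alarmin of the same family, had 2 reads in M0 and 461 in M1-like macrophages, and Il36a 0 and 97 reads, at least 41.1-fold higher (against 3 reads over the 3 M0 samples). Both are among the 4 that rose, and neither had enough reads in M0 macrophages to pass the filter there. Their direction was therefore set in part by the filter and is no separate support. The receptor Il1rl2, which binds the IL-36 ligands, fell from 7.40 ± 0.74 to 1.75 ± 0.76 CPM (-2.05 ± 0.21), and rose in M2-like macrophages to 20.4 ± 0.33 CPM (1.46 ± 0.17). In iM1 macrophages against the negative pool 1 of 5 tested genes rose and 1 fell (26.5% of all genes called), Il36g at 1.73 ± 0.63 against 0.368 ± 0.163 CPM (2.22 ± 0.47, adjusted p = 0.000565) and Sigirr, an inhibitory receptor, at 0.335 ± 0.079 against 1.32 ± 0.25 CPM (-1.95 ± 0.52, adjusted p = 0.00530).

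Of 19 genes that signal downstream of the IL-1 and IL-18 receptors, all tested, 13 rose and 5 fell in M1-like against M0 macrophages at 24 h (median 0.66; 72.9% of all genes called). The adaptor Myd88 (2.38 ± 0.06), the inhibitory kinase homologue Irak3 (2.39 ± 0.06) and the E3 ligase Peli2 (-2.90 ± 0.07) changed most. In iM1 macrophages against the negative pool 6 rose and 4 fell (median 0.13; 26.5% of all genes called), led by Peli3 (0.78 ± 0.18), Irak2 (0.57 ± 0.07) and Rela (0.52 ± 0.09). Over all genes the medians of these comparisons were -0.04 and 0.01.

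The third list held 20 genes for the maturation and release of IL-1 and IL-18. At 24 h 11 rose and 8 fell in M1-like against M0 macrophages (median 0.44; 72.9% of all genes called), with the largest changes in the inflammasome sensors Mefv (5.50 ± 0.12) and Nlrp3 (4.67 ± 0.10) and the inflammatory caspase Casp4 (4.47 ± 0.11). Casp1, which cleaves IL-1β and IL-18, rose from 94.0 ± 2.08 to 403.4 ± 48.1 CPM (SD; 2.10 ± 0.12), and P2rx7, the ATP-gated channel upstream of NLRP3, fell from 95.5 ± 1.45 to 47.3 ± 6.56 CPM (-1.01 ± 0.08). In iM1 macrophages against the negative pool 6 rose and 3 fell (median 0.03, against 0.01 over all genes, of which 26.5% were called), led by the same 3 genes, Nlrp3 at 30.5 ± 0.91 against 13.3 ± 0.15 CPM (1.19 ± 0.14, adjusted p = 1.89e-07), Mefv (1.09 ± 0.29, adjusted p = 0.00460) and Casp4 (0.68 ± 0.17, adjusted p = 0.00377). Il1rl2, Casp1 and P2rx7 were named after their values were seen.

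Genes with the most similar profile over the 15 conditions were looked for among 9594 genes with sufficient counts in both experiments, by the Pearson r of their condition means, centred within each experiment. The most similar to Il1a were Src (r = 0.99), Met (0.98) and D17Wsu92e (0.97), to Il1b Eno1b, Prelid1 and Gm14760 (0.98 each), and to Il18 Lyn (0.96), Tanc1 (0.95) and Htra1 (0.94). Il1b itself had condition means of 0.0453 to 1.99 CPM in the reprogramming experiment, below what was asked of the compared genes. Its profile there holds much counting error. Il1rn was closest to Usp25, Perm1 (0.99 each) and Zup1 (0.98), and Il18bp to Erap1, Tgtp2 and Gm43302 (0.99 each). For Il1r1 they were Zfand5 (0.98), Fcgr2b and Cd72 (0.97 each), and for Il1rap Limk1, 9430038I01Rik and Apex1 (0.98 each). Among the members themselves, Il1a and Il1rn had the highest r (0.94) and Il1b and Il1rap the lowest (-0.91). M1-like macrophages at 24 h stood far apart from the other states of that experiment for Il1a, Il1b and Il1rn. How far this condition sets the r values given here was not tested.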

How the data were processed

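RNA from peritoneal macrophages was sequenced in 54 libraries. Per the submitters' processing notes, reads were trimmed with Trimmomatic and aligned to mm10 with TopHat2, and the authors deposited raw read counts per gene from featureCounts, with versions and strand setting not given in the sources used here. These counts were used as deposited. Technical replicates were summed, which gave 39577911 to 59443987 reads per mouse and condition, against 13421854 to 19704195 in the libraries of the other experiment. Deep genes are therefore measured well, and below about 1 CPM counting error is large. Intervals and floors from counts cover counting error only, since reads carry no molecular identifiers.

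Groups were taken from the labels. Each experiment was filtered (filterByExpr, minimum count 10, minimum total 15), scaled by TMM and fitted apart over all its conditions with edgeR 4.0.16 (quasi-likelihood test, R 4.3.3) for 27 comparisons, with p-values adjusted by Benjamini-Hochberg over all genes at a threshold of 0.05. The 95% intervals are the estimate and its SE on a normal scale. The fit was tested on simulated data. DESeq2 1.42.0 was an alternative, with RLE scaling, no filter, only the compared groups, a replicate block, another reference and leaving out each replicate. Values per library, ratios and profile likeness (mean log2 CPM, prior count 2) were computed with Python 3.11.15, pandas 2.3.3, NumPy 2.4.6 and SciPy 1.17.1 and drawn with matplotlib 3.10.9. Exon lengths and positions are from GENCODE M21 on GRCm38, the same build as mm10.

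All 8 members were named, with 3 similar genes each. Of each list the 3 called genes with the largest change were named, in M1-like against M0 macrophages at 24 h and in iM1 macrophages against the negative pool. Members, lists and alternatives were chosen with earlier results of these data known. In the polarization experiment the number is the mouse, as the labels give it, and samples of 1 mouse deviated together by a median r of 0.25 over 9 pairs (lowest -0.06).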

Additional observations from a re-analysis of the deposited data

Results flagged for a closer look

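The difference of mock from untransfected cultures varied between the macrophage states in 4 tested differences, by interaction contrasts that were chosen after seeing the data. Reagent and time in culture cannot be told apart in it. Mock against untransfected cultures differed more in M0 than in M1-like macrophages for Il1a, by 1.77 ± 0.26 (SE) on the log2 scale, and in all 3 mock-treated M0 libraries Il1a lay above all 3 untransfected ones. For Il1rn the difference was 1.11 ± 0.23 and for Il18bp 2.09 ± 0.45, which was 1.35 without replicate 3 of M0 mock. Between M0 and M2-like macrophages it was called for Il1a, at 1.19 ± 0.27. Replicate 3 of M0 mock held 22.8 CPM of Il18bp against 7.08 and 7.79 CPM in the others. What moved with it was not tested.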

How the results depend on the processing

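Of the results with an alternative, most stayed on their side of the threshold: 185 of 189 with DESeq2, 188 of 189 with RLE scaling, 162 of 189 with no filter, 159 of 168 with only the compared groups and 21 of 21 with technical replicates kept apart. With no filter the called members numbered 3 and not 1 for untransfected M2-like against M0, 2 and not 1 for mock M2-like against M0, 2 and not 0 for mock against untransfected M2-like, 4 and not 2 for the negative pool against mock, 2 and not 1 for Pparg, 1 and not 0 for E2f1, 2 and not 1 for iM1 against Pparg, 3 and not 0 for the interaction of M1-like and M2-like, and 5 and not 1 for M0 minus M2-like. With only the compared groups they were 1 and not 0 for mock against untransfected M2-like, 5 and not 3 for Myc, 2 and not 1 for Pparg, and 1 and not 0 for E2f1. Against M2-like mock in place of the negative pool they were 3 for Pparg, 2 for E2f1 and 3 for Stat6, and Il18bp then turned from -0.14 to 2.10 for E2f1 and from -0.09 to 2.14 for Stat6, since this reference lacks the step from mock to the negative pool. In the reprogramming experiment no label ties the replicate numbers to a mouse or day. Same-numbered samples deviated by a median r of 0.18 (lowest -0.25), against -0.08 for other numbers, and 34 of 36 samples correlated best with their own number, a hint from the data and not from the design. With a replicate block the calls were 4 and not 2 for the negative pool against mock (Il1a at 0.48 and Il1r1 at 0.65 added) and 2 and not 1 for iM1 against Pparg, and 182 of 189 results stayed, with no change at 24 h. Leaving out each replicate gave 0 to 1 for mock M2-like against M0, 1 to 2 for iM1 against the negative pool, 0 to 2 against Pparg, 1 to 4 against E2f1 and 2 to 4 against Stat6. The causes of these changes were not tested. Il1b and Il1r2 are limited by depth outside M1-like macrophages at 24 h.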
